A study of Homo sapiens with 5 samples.

Results

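The genes of the pre-mRNA splicing machinery were examined for PHF8 binding at their promoters. They were chosen by symbol alone, as the protein-coding genes of GENCODE release 44 (lifted to GRCh37, the same build as hg19) whose names begin with SNRP (without SNRPN), SRSF, SF3A, SF3B, PRPF, U2AF, HNRNP or LSM and a number. The rule gave 86 genes of 20162 protein-coding genes, and used no measured value. The family itself was picked with earlier results of these data known. PHF8, a histone demethylase whose PHD finger binds the histone mark of active promoters, was immunoprecipitated from the human melanoma line SKMEL-147 in 3 libraries named A, B1 and B2. The 2 samples labelled as inputs (A and B) received no antibody and were not analysed here. All 5 samples were of this line, with no modification or treatment named, so the comparison is between genes within each ChIP library. Nothing in the labels says that the 3 libraries came from separate cultures, and their spread may be technical.

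Splicing removes introns from pre-mRNA in the spliceosome, which is built from small nuclear RNAs and proteins. Sm and LSM proteins form rings around these RNAs, the SF3A and SF3B complexes hold the U2 particle on the branch point, and U2AF reads the 3′ splice site. PRPF proteins carry the tri-snRNP and the steps of activation, while SRSF and HNRNP proteins bind exons and introns and set which sites are used. Most of these genes are expressed in nearly every cell type from CpG-rich promoters.

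The deposited lists held 21506 peaks for A, 20882 for B1 and 20120 for B2. Fragments at a peak's summit, recovered from the deposited fold enrichment and p-value, had a median of 54, 39 and 40. A gene was called bound where a peak came within 1 kb of any of its transcription start sites (TSSs) in each of the 3 libraries. Values by library are given in the order A, B1, B2. By this rule the melanocyte lineage genes SOX10, MITF and PMEL were bound and TYR, DCT and MLANA had no promoter peak in any library, which describes binding and not expression.

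To show the base composition of promoters with no, weak and strong peaks, the 150 bp before the canonical TSS is given for 8 genes, each window lying outside every annotated exon of that gene, with CpG dinucleotides in capitals. The sequences were read 5′ to 3′ on the gene's strand from GRCh37. SRSF12 (chr6:89827791-89827940, minus strand), HNRNPA1L3 (chr16:51587197-51587346, plus strand) and HNRNPCL1 (chr1:12908574-12908723, minus strand) had no promoter peak. SRSF8 (chr11:94799933-94800082), HNRNPH2 (chrX:100663060-100663209) and HNRNPUL1 (chr19:41770127-41770276), all on the plus strand, had the weakest peaks of the bound genes. LSM14A (chr19:34663259-34663408) and HNRNPAB (chr5:177631384-177631533), also on the plus strand, were among the strongest.
SRSF12: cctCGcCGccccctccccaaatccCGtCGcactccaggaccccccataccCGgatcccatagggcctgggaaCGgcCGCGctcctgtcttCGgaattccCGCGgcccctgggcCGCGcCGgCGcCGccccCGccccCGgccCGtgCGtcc
HNRNPA1L3: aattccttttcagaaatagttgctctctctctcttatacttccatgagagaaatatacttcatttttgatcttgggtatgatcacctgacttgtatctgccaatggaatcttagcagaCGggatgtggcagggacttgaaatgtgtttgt
HNRNPCL1: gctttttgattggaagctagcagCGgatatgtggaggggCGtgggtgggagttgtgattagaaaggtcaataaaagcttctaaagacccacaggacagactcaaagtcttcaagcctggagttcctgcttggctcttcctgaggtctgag
SRSF8: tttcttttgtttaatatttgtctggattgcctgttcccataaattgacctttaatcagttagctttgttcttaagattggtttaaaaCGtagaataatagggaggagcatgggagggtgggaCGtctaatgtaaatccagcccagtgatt
HNRNPH2: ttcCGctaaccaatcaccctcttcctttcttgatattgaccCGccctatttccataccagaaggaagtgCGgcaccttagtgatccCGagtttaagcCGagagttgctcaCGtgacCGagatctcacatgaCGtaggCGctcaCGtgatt
HNRNPUL1: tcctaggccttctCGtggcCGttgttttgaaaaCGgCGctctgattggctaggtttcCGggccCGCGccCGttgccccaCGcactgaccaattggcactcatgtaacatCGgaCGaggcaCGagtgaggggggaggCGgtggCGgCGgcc
LSM14A: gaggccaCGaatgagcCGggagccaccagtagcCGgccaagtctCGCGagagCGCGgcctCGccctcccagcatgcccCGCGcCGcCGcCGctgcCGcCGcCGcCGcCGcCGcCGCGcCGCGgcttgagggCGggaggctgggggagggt
HNRNPAB: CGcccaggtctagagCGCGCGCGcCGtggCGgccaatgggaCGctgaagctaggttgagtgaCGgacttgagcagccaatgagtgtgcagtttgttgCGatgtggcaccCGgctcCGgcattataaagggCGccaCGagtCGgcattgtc
These windows held 20 CpG in SRSF12, 1 in HNRNPA1L3, 2 in HNRNPCL1, 2 in SRSF8, 10 in HNRNPH2, 15 in HNRNPUL1, 24 in LSM14A and 15 in HNRNPAB. The median over all 86 genes was 16 CpG in the same window, beside 15 over bound protein-coding genes and 4 over unbound ones.

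PHF8 was found at the promoters of nearly the whole group. A peak was present in all 3 libraries at 81 of 86 genes, or 94.2% (95% Wilson interval 87.1 to 97.5%), where 60.2% of all protein-coding genes were bound by the same rule. No gene had a peak in only 1 or 2 libraries: the other 5 had none in any. The bound genes comprised all 7 Sm proteins, all 4 proteins of the U1 and U2 particles, all 12 factors of the branch point and 3′ splice site, all 13 PRPF and 13 LSM genes, all 20 HNRNP genes outside the copies, and 10 of 11 SRSF genes. HNRNPUL2 and the readthrough gene HNRNPUL2-BSCL2 share their strongest peak, so the 81 genes rest on 80 separate peaks.

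**Figure D1:**
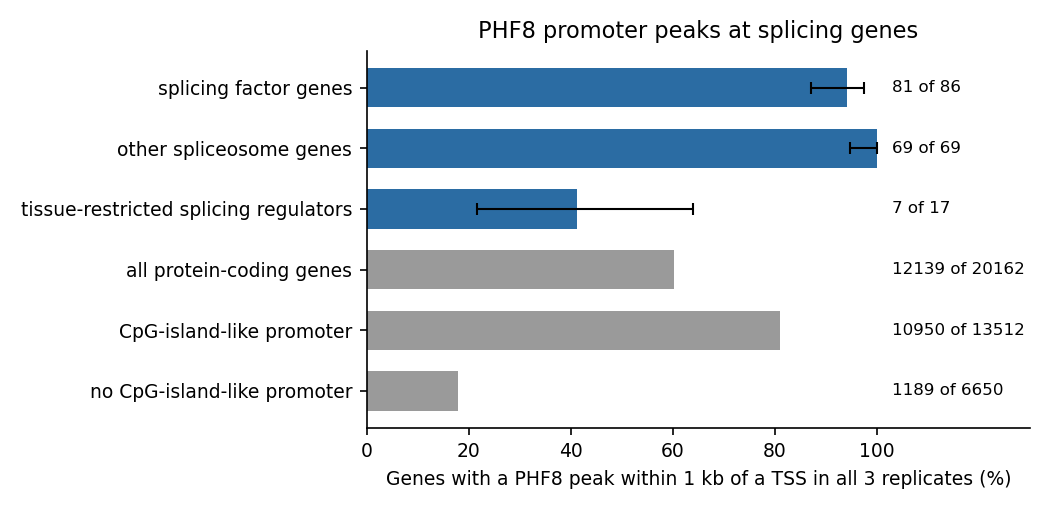
Horizontal bars give the percentage of genes bound by PHF8 in all 3 libraries, for the 86 splicing factor genes, 2 comparison lists (blue) and protein-coding genes in all and by promoter type (grey); lines are 95% Wilson intervals. Bound were 81 of 86 splicing factor genes, 69 of 69 other spliceosome genes and 7 of 17 tissue-restricted regulators, beside 60.2% of all protein-coding genes. Differences between these shares were not tested.

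The 5 genes without a peak were 4 copies and 1 SRSF gene. HNRNPA1L2 (ENSG00000139675, chr13:53216566-53217908) and HNRNPA1L3 (ENSG00000224578, chr16:51587347-51681043) are copies of HNRNPA1. HNRNPCL1 (ENSG00000179172, chr1:12907230-12908573) and HNRNPCL2 (ENSG00000275774, chr1:13182960-13184326) derive from HNRNPC and closely resemble each other, so reads of one may not be placed apart from the other and their lack of a listed peak is uncertain. SRSF12 (ENSG00000154548, chr6:89805678-89827790) is a relative of SRSF10 that acts on splice-site choice. No peak came near in any library. The nearest one to a TSS of SRSF12 lay 27564, 27626 and 27722 bp away, and for HNRNPA1L2 it lay 9541, 9589 and 9431 bp away. HNRNPA1L3 had distances of 83765, 400650 and 14681 bp, HNRNPCL1 of 229087, 229472 and 229812 bp and HNRNPCL2 of 504840, 505225 and 505565 bp.

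The genes from which these copies derive were bound in every library. HNRNPA1, an abundant RNA-binding protein that packages pre-mRNA, had a fold enrichment over the local background of 28.3, 21.2 and 17.96. In A the HNRNPA1 summit lay outside the gene, 84 bp from a TSS of the divergent gene CBX5. HNRNPC, which binds uridine tracts, had 32.5, 16.6 and 16.4. SRSF10, the relative of SRSF12, had 34.8, 27.3 and 28.3. SRSF8, an intronless copy of SRSF2, was the only copy outside the readthrough gene with a peak, at a fold enrichment of 12.5, 14.7 and 11.5 against 41.9, 23.6 and 25.3 at SRSF2 itself. In each library SRSF8 was below SRSF2, and its summit lay in the coding part of its exon in all 3. Whether reads of SRSF2 were placed at this copy was not tested.

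Promoter base composition followed the same division with 2 exceptions. A promoter was called CpG-island-like where the GC share within 250 bp of the canonical TSS was at least 0.5 and the observed over expected CpG ratio at least 0.6. This held for 81 of 86 splicing factor genes (94.2%), beside 67.0% of all protein-coding genes. Of these 81 genes 80 were bound (98.8%, interval 93.3 to 99.8%), where 81.0% of all CpG-island-like promoters were, and SRSF12 was the exception with a GC content of 75.1% and a CpG ratio of 0.86. Of the 5 promoters that were not CpG-island-like 1 was bound, that of SRSF8 (GC 48.1%, ratio 0.69), and 17.9% of such promoters were bound over all protein-coding genes. The SRSF8 summits lay at -437, -446 and 464 bp from the nearest TSS of the gene, outside the window whose composition is given. The 80 CpG-island-like genes made 98.8% of the bound splicing factor genes, beside 90.2% of all bound genes. GC content itself was not high in the group, with a median of 62.9% against 67.7% over bound protein-coding genes, while the median CpG ratio was 0.90 against 0.85.

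**Figure D2:**
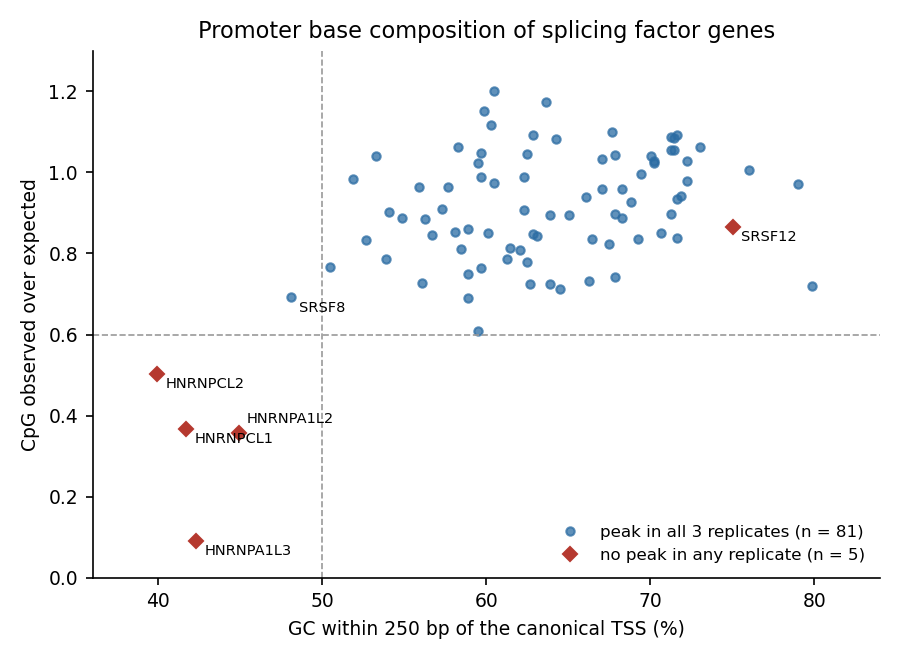
Each point is 1 of the 86 splicing factor genes, placed by GC content (%, x axis) and observed over expected CpG (y axis) within 250 bp of the canonical TSS; dashed lines mark the limits of 50% and 0.6. The 4 HNRNP copies without a peak (red diamonds) lie below both limits, SRSF12 lies well above them without a peak, and SRSF8 is the bound gene at a GC content of 48.1%.

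Splicing genes outside the naming rule were read from lists of spliceosome genes and of tissue-restricted regulators. Of 69 other spliceosome genes, such as the U1 protein gene SNRNP70 and the helicase gene AQR, 69 were bound (interval 94.7 to 100.0%, beside 60.2% of all protein-coding genes) and 64 were CpG-island-like. With the outermost 5′ end as the only TSS 61 of these 69 were bound, beside 54.0% of all protein-coding genes. GEMIN6 of this list had the same fold enrichment in each library (45.2, 42.3 and 32.2) as its divergent partner SRSF7. Its call is therefore not separate from the main group. Of 17 splicing regulators restricted to particular tissues 7 were bound (41.2%, interval 21.6 to 64.0%), beside 60.2% of all protein-coding genes. The 7 bound regulators were ELAVL2, ELAVL3, ESRP2, KHDRBS2, NOVA1, RBM20 and RBM24, all of them among the 14 regulators with a CpG-island-like promoter. ESRP2, an epithelial regulator, had a fold enrichment of 51.3, 26.8 and 23.1, whereas NOVA1, a neuronal one, had 17.1, 6.55 and 3.82. CpG-island-like promoters were bound at 80 of 81 genes of the main group and at 7 of 14 of the tissue-restricted list (interval 26.8 to 73.2%), beside 81.0% of all such promoters. The lists were drawn up with results of these data known, and the difference was not tested.

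The strength of a promoter peak was read as its percentile among the 12139 bound protein-coding genes of the same library, since each list has a scale of its own. The bound splicing factor genes had a median fold enrichment at their strongest promoter peak of 38.1, 23.6 and 22.4, and the bound protein-coding genes had 33.4, 19.4 and 18.4. On the log2 scale the medians were apart by 0.19, 0.29 and 0.28, a mean of 0.25 ± 0.06 (SD, n = 3), with the splicing factor genes higher in all 3 libraries. Their median percentile was 62.0, 67.4 and 67.1, or 65.5 ± 3.03. By the mean over libraries 54 of the 81 genes were above the median of bound protein-coding genes, 12 were in the highest 10% and 1 was in the lowest 10%.

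**Figure D3:**
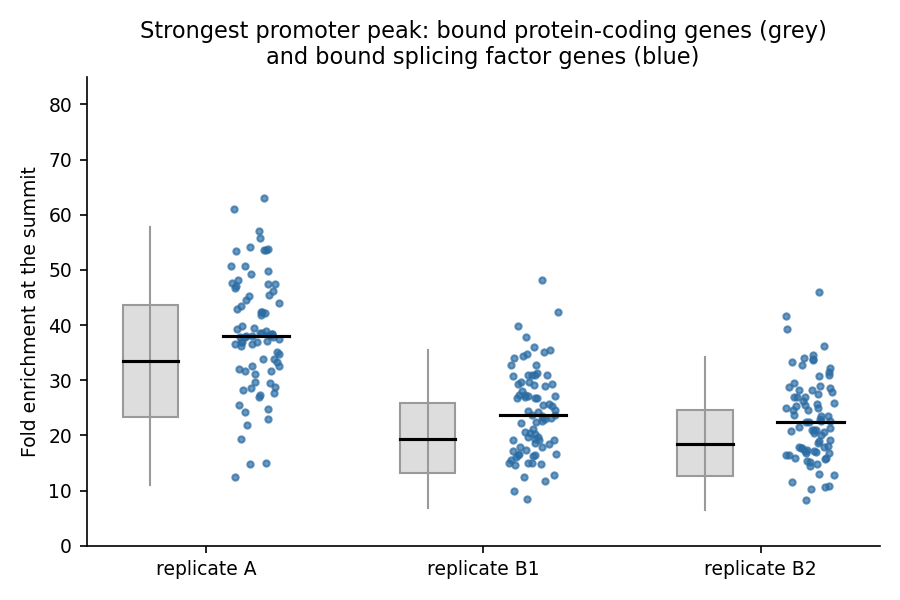
Fold enrichment at the summit of the strongest promoter peak (linear y axis) in libraries A, B1 and B2. Grey boxes give the quartiles and median of the 12139 bound protein-coding genes with lines from their 5th to 95th percentile, and blue points the 81 bound splicing factor genes with their median as a black bar, at 38.1, 23.6 and 22.4.

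No bound gene rested on a peak near the limits of the lists. Fold enrichment ranged from 12.5 to 63.0, from 8.53 to 48.1 and from 8.21 to 46.0 by library. The weakest of these peaks held 31, 24 and 24 fragments at its summit, and the lowest −log10 q-value was 27.0, 16.0 and 15.4. A fold enrichment above 10 in all 3 libraries was reached by 79 genes, where 49.6% of all protein-coding genes reached it. The stricter limit of 20 was reached by 45 of 86 genes (52.3%), beside 23.8% of all protein-coding genes. Median fragments at the summit were 115, 80 and 78 for the splicing factor genes and 97, 64 and 63 for bound protein-coding genes, and median peak widths were 924, 755 and 720 bp against 824, 721 and 673 bp.

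The strongest peaks lay at 2 LSM genes and 1 HNRNP gene. LSM7 (ENSG00000130332, chr19:2321519-2328610), a subunit of the ring on U6 RNA and of the ring that acts in mRNA decay, had a fold enrichment of 63.0, 37.9 and 33.8. Its mean percentile was 96.5 ± 1.62, its peak in A spanned chr19:2328300-2329124, and its summits lay outside the gene in all 3 libraries, at -154, -165 and -192 bp from its own TSS and 69, 80 and 107 bp from one of the divergent gene SPPL2B. This strongest peak of the group can therefore not be told apart from one of SPPL2B. HNRNPAB (ENSG00000197451, chr5:177631534-177638164), an RNA-binding protein of the A/B family, had 53.5, 35.1 and 41.7, with the summit 80, 66 and 69 bp downstream of a TSS, inside the UTR. LSM14A (ENSG00000257103, chr19:34663409-34720193), a P-body protein that represses mRNA translation, had 55.8, 39.9 and 32.7, with the summit at -263, -241 and -260 bp from the TSS. Each of them was in the highest 10% of bound protein-coding genes in every library, the lowest percentile being 91.0 for HNRNPAB in A.

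At the other end were HNRNPH2, HNRNPUL1 and SRSF8. HNRNPH2 (ENSG00000126945, chrX:100663210-100669121), a binder of G-rich tracts, had a fold enrichment of 14.8, 8.53 and 8.21 and a mean percentile of 9.78 ± 0.28. Its strongest peak in A (chrX:100662506-100662943) lay outside the gene, 68 bp from a TSS of the divergent gene GLA, while those in B1 and B2 lay in its own intron, 129 and 108 bp downstream of the TSS. HNRNPUL1 (ENSG00000105323, chr19:41768401-41813692), a nuclear RNA-binding protein also active in DNA repair, had 15.0, 9.99 and 10.3 and a mean percentile of 13.6 ± 3.04. SRSF8 (ENSG00000263465, chr11:94800083-94804388) had a mean percentile of 19.5 ± 12.3. Each of these genes was in the lower part of the list in every library, with 31.2 for SRSF8 in B1 as their highest percentile. The paralog HNRNPH1, with 43.0, 48.1 and 46.0, had the highest fold enrichment of all 81 genes in both B libraries.

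Peak strength varied within the functional classes, over ranges of different width, as the plot by class shows. The lowest bound gene had a mean percentile of 43.6 in the Sm, 41.2 in the U1 and U2 and 42.9 in the SRSF class. In the PRPF, LSM, branch point and HNRNP classes it had 32.1, 26.8, 25.9 and 9.78. The 7 Sm genes, whose proteins form the core ring of the spliceosomal snRNPs, had a median percentile of 70.5 ± 9.18 (SD over the 3 libraries). SNRPD3 was the strongest of them with a fold enrichment of 57.1, 27.2 and 25.01, and SNRPF the weakest with 36.2, 16.0 and 15.4. The SNRPD3 summit in B1 lay 84 bp from a TSS of GUCD1. In A and B2 it lay 94 and 77 bp from a TSS of the coding gene ENSG00000286070, and 119 and 102 bp from its own. Among the U1 and U2 proteins, median 58.8 ± 2.37, SNRPA1 had 49.3, 26.8 and 27.0 and SNRPA 26.9, 17.2 and 17.9. SNRPA of the U1 particle was below SNRPA1 of the U2 particle in every library.

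Of the 12 genes that recognise the branch point and 3′ splice site, the median percentile was 64.0 ± 0.88. SF3B3, a scaffold subunit of SF3B, was highest with a fold enrichment of 53.7, 30.7 and 33.3, but its summits lay outside the gene, 9, 12 and 10 bp from a TSS of the divergent gene COG4. SF3A3, a subunit of SF3A, was lowest with 28.6, 12.5 and 10.8. SF3B1, which clamps the branch point and is recurrently mutated in cancers including uveal melanoma, had 31.2, 19.1 and 16.8. For the 13 PRPF genes, median 64.0 ± 2.45, PRPF4 of the tri-snRNP was highest with 53.5, 29.0 and 28.2 and PRPF38A lowest by mean percentile with 37.1, 11.8 and 10.6. PRPF8, the protein at the catalytic centre, had 47.5, 27.3 and 26.3.

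The 13 LSM genes had a median percentile of 66.1 ± 2.73, with LSM7 the highest and LSM11, a subunit of the U7 particle for histone mRNA, the lowest at a fold enrichment of 21.9, 14.9 and 12.8. The 10 bound SRSF genes had the highest class median, 77.1 ± 4.91. SRSF7, a shuttling SR protein, had 45.2, 42.3 and 32.2, and SRSF5 had 29.4, 17.9 and 16.9. The 20 HNRNP genes had a median percentile of 60.2 ± 5.15 and held both HNRNPAB and HNRNPH2. HNRNPK, which binds C-rich RNA, had 38.1, 23.5 and 20.04, and HNRNPU, a nuclear matrix protein, had 33.9, 16.2 and 15.8. The HNRNPK summits in A and B2 lay outside the gene, 79 and 129 bp from a TSS of the divergent gene RMI1.

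**Figure D4:**
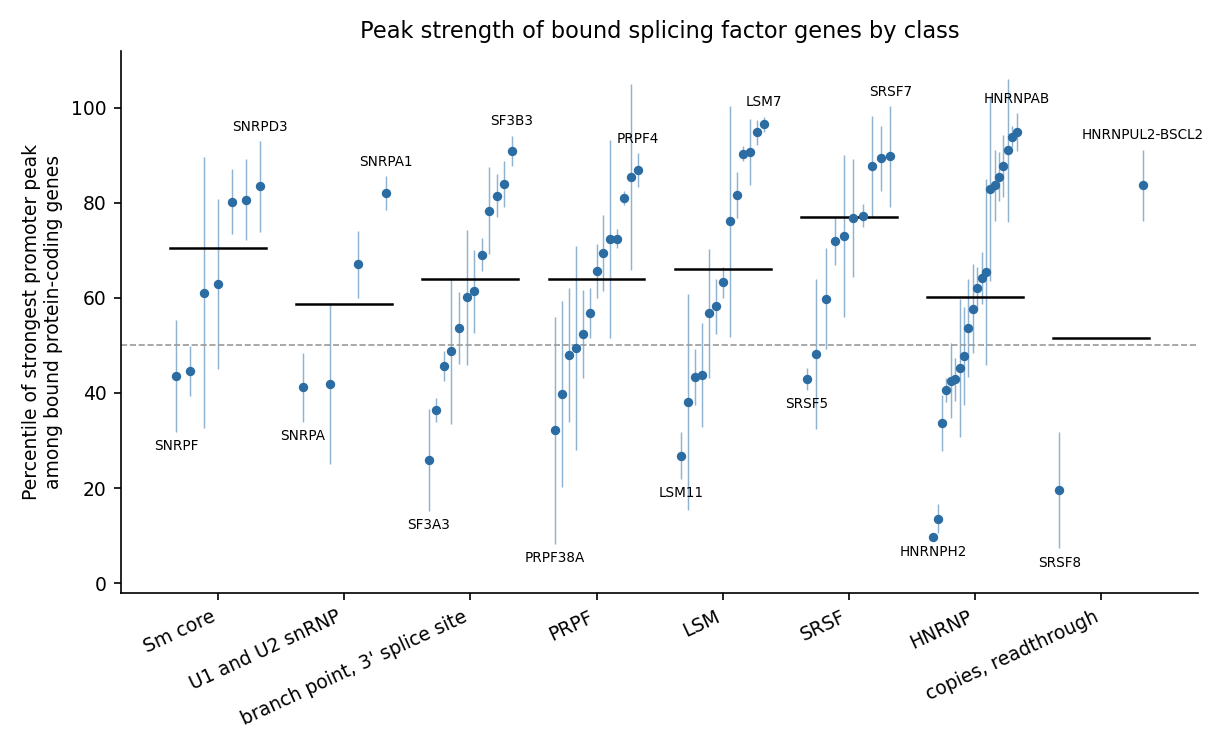
Each blue point is 1 of the 81 bound splicing factor genes, at the mean percentile of its strongest promoter peak among bound protein-coding genes (y axis) with the SD over 3 libraries as a line, sorted within its class (x axis). Black bars are class medians (mean over libraries), from 51.6 for copies and readthrough genes to 77.1 for SRSF genes, the dashed line marks 50, and the labelled genes are the highest and lowest of each class.

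Core and regulatory proteins were also compared as wholes, although the regulators pool the SRSF genes (class median 77.1) with the HNRNP genes (60.2). The genes called core here were those of the Sm, U1 and U2, branch point and 3′ splice site, PRPF and LSM classes. Not all of them code for snRNP proteins, LSM14A being an example. The median percentile was 65.7 ± 2.67 for these core genes and 65.9 ± 4.10 for the SRSF and HNRNP genes. The difference, core minus regulators, was 1.32, 0.45 and -2.17, a mean of -0.14 ± 1.81, so its sign varied between libraries and its size was below their spread.

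Related genes were set side by side in 8 pairs, by the log2 ratio of their fold enrichment within each library. LSM14A exceeded LSM14B by 0.50, 0.79 and 0.67, and U2AF1 exceeded U2AF2 by 0.01, 0.36 and 0.02. SNRPA was below SNRPA1 (mean -0.70 ± 0.15), SF3B1 below SF3A1 (-0.55 ± 0.10), SRSF1 below SRSF2 (-0.41 ± 0.27), HNRNPA1 below HNRNPA2B1 (-0.31 ± 0.28) and HNRNPD below HNRNPDL (-0.24 ± 0.23), each in 3 of 3 libraries. PRPF38A and PRPF38B were level in A and differed in B1 and B2 (0.00, -1.06 and -1.08). With 3 libraries an exact sign-flip permutation test (two-sided) cannot give a p below 0.25. The 7 pairs of 1 sign gave this value (0.286 after Benjamini-Hochberg adjustment over the 8 pairs) and PRPF38A and PRPF38B gave an exact p of 0.5, so no pair could pass 0.05.

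Agreement between libraries depended on the measure. Over the 81 genes Spearman's rho of fold enrichment was 0.727 between A and B1, 0.685 between A and B2 and 0.884 between B1 and B2, given as a description because genes are not replicates. For recovered fragments rho was 0.916, 0.892 and 0.902. The labels name 1 input B, so the fold enrichments of B1 and B2 may share a control, whose part in this likeness was not tested. The SD of a gene's percentile over the libraries ranged from 0.28 at HNRNPH2 to 28.5 at SNRPD1, and was above 20 at 6 genes. SNRPD1 had a fold enrichment of 24.7, 26.9 and 24.97, which is percentile 28.3 in A but 78.8 and 76.2 in B1 and B2. LSM4 moved the other way, with percentiles of 64.2, 23.2 and 26.9. Percentile had a rho of 0.293 with GC content, 0.163 with the CpG ratio, 0.361 with mean peak width and -0.062 with the number of TSSs over the same 81 genes.

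Strongest summits lay mostly just downstream of a TSS. To assign a side, genes with a TSS of the opposite strand within 2 kb were left out, which kept 33 splicing factor genes in each library. The summit was downstream of the nearest TSS of the gene at 26, 27 and 29 of 33 genes, or 82.8% ± 4.63, beside 73.0% ± 0.40 over bound protein-coding genes. Median positions were 93, 107 and 100 bp downstream, against 87, 84 and 86 bp. Between 50 and 150 bp downstream lay 22, 23 and 22 of the 33 summits, a mean of 67.7% beside 51.5%. Over all 81 genes the summit fell in a UTR at 26, 23 and 26 genes and in the coding part of an exon at 14, 18 and 16. It fell in an intron at 20, 25 and 25, in a non-coding exon at 4 in each library, and outside the gene at 17, 11 and 10. Shares of these places over bound protein-coding genes were not taken.

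**Figure D5:**
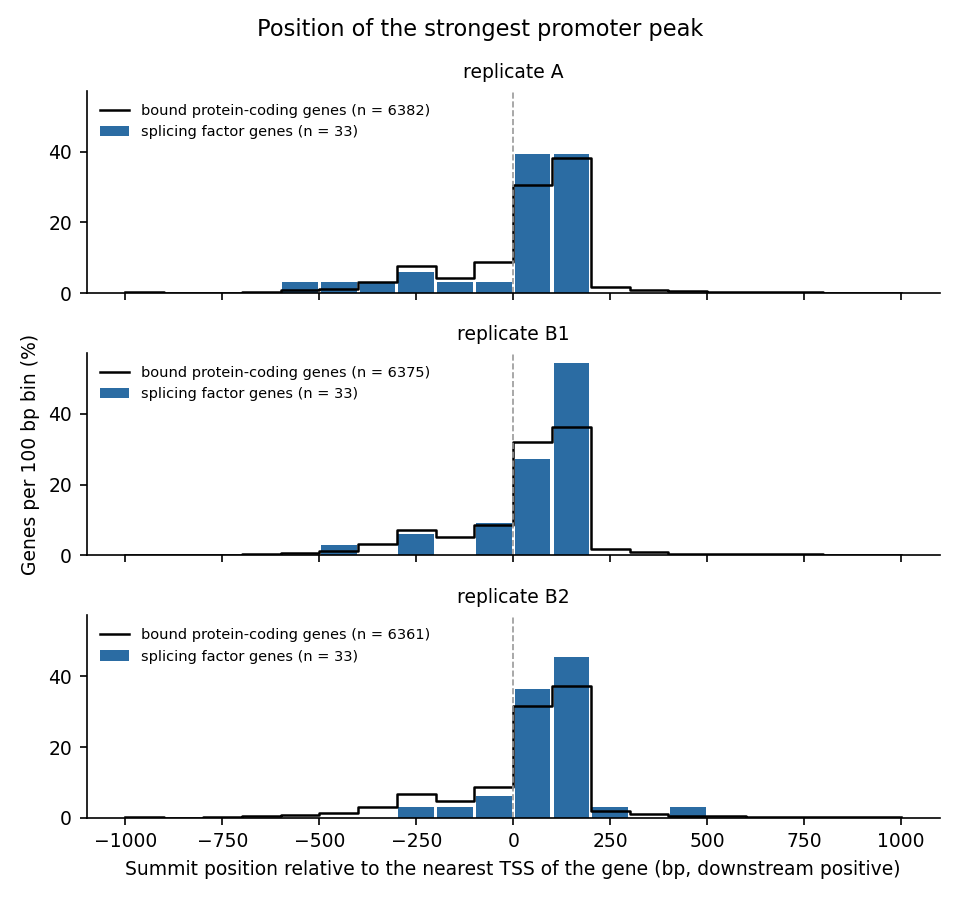
Percentage of genes per 100 bp bin (y axis) by the position of the strongest summit relative to the nearest TSS of the gene (x axis, bp, downstream positive), for libraries A, B1 and B2. Blue bars are the 33 splicing factor genes without an opposite TSS within 2 kb and the black line the bound protein-coding genes by the same rule; in each library most genes of both sets lie within 200 bp downstream.

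Many genes had more than 1 peak, at 1 promoter or at several. In every library 36 of the 81 bound genes (44.4%) had at least 2 separate peaks near any of their TSSs, beside 31.9% of bound protein-coding genes. With 1 TSS per gene this held for 31 genes at the canonical TSS and 28 at the outermost 5′ end. The share over bound protein-coding genes was taken only with all TSSs, so these 2 counts have no baseline beside them. The strongest summit of SRSF11 lay near one TSS in A (peak at chr1:70686730-70687707) and near another in B1 (chr1:70670871-70671291). In B1 and B2 that summit lay outside SRSF11, at -233 and -201 bp from its own TSS. A TSS of LRRC40 was nearer, at 130 and 98 bp. HNRNPF, a binder of G-rich RNA, had 7, 5 and 7 separate peaks, and HNRNPL, which binds CA repeats, had 4, 5 and 4. HNRNPF has 8 annotated TSSs and HNRNPL 13, and the number of TSSs per gene had a median of 7 in the splicing factor genes and in bound protein-coding genes alike. No bound gene had a peak in its body away from every TSS in all 3 libraries (0 of 81, which allows a share of up to 3.70% by the limit of 3 counts, or 4.53% by the Wilson interval), where 2.64% of bound protein-coding genes did.

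Choice of TSS made little difference to the calls. At the Ensembl canonical TSS alone the same 81 genes were bound, where 57.4% of all protein-coding genes were. With the outermost 5′ end of each gene as its only TSS 79 genes were bound, where 54.0% of all protein-coding genes were. HNRNPH1 and SRSF5 were lost. Their peaks lay at internal TSSs, that of SRSF5 at chr14:70233362-70234735 in A within a gene annotated from 70193617.

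Many of these promoters face another gene. An opposite-strand gene started within 1 kb upstream of the canonical TSS at 38 of 86 genes (44.2%), beside 24.3% of protein-coding genes. For 25 genes (29.1%, against 12.5%) the partner was protein-coding, and for the other 13 bound genes it was a non-coding transcript. The partners included CBX5 at HNRNPA1 and CBX3 at HNRNPA2B1, 2 genes of heterochromatin proteins, GEMIN6 at SRSF7, which acts in snRNP assembly, and XPC at LSM3. SPPL2B at LSM7 was the closest of the coding partners named here, 29 bp from the canonical TSS. The median percentile was 68.1 for the 38 bound genes with a partner and 58.2 for the 43 without, a difference that was not tested. A protein-coding TSS of another gene was nearer to the strongest summit at 14, 9 and 13 of 81 genes, beside 14.9% of bound protein-coding genes in A, so at these genes the peak cannot be assigned to 1 of the 2 promoters.

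Short sequence motifs were searched on both strands from 250 bp before to 50 bp after the canonical TSS. Each share is set beside that of all and of bound protein-coding genes, in this order. The CCAAT box (CCAAT) was present at 46 of 86 genes (53.5%, beside 35.9 and 36.8%). The ETS motif CCGGAAG was present at 25 (29.1%, beside 14.0 and 20.9%), the NRF1 motif GCGCATGC at 8 (9.30%, beside 4.26 and 6.18%) and CTCGCGAG at 5 (5.81%, beside 1.45 and 2.21%), among them LSM14A, whose copy can be read in the sequence above. The baseline mattered for the GC box GGGCGG, whose share of 60.5% was near the 60.9% of all genes and below the 75.7% of bound genes, and for TATAAA, whose 10.5% was near the 9.80% of all genes and above the 4.64% of bound genes. The E-box CACGTG (10.5%, beside 8.74 and 10.5%) and the YY1 motif AAGATGG (8.14%, beside 6.43 and 8.05%) were close to both. ACTACAAT, read by ZNF143, was at 2 genes (2.33%, beside 0.67 and 0.93%), and the CRE TGACGTCA was at none, beside 2.68 and 3.61%. These shares describe letters in a window and were not tested, and the motifs can overlap one another. Bound genes with a CCAAT box (43) had a median percentile of 57.8, and those without (38) had 74.9. For the ETS motif the medians were 62.9 over 25 genes and 63.8 over 56.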

How the data were processed

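The members and gene lists were chosen with earlier results of these data known. The authors mapped reads to hg19 with Bowtie2 and called narrow peaks with MACS for each ChIP library separately against input. The submitters' processing notes also name Picard, with no role. Read totals and the treatment of duplicates are not given in the sources used here. The deposited values are the fold enrichment (a linear ratio of ChIP over local background at the summit), the p-value and q-value as −log10, and a score that is the whole part of 10 times −log10 q; the authors' cutoffs (fold above 1.5, and q printed as above 0.05 but read here as below) removed no listed peak.

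TSSs were the 5′ ends of all GENCODE transcripts, 221290 gene and TSS pairs on 64439 genes. The strongest promoter peak of a gene was the one with the highest fold enrichment, ranked among bound protein-coding genes of its library. Fragments at a summit were recovered as the whole number that gives both the deposited fold and the p-value under a Poisson law, for 100% of peaks within a tolerance of 0.001 on the log10 scale, and intervals cover counting error only. Genes on the mitochondrial chromosome were left out. Full values were given for genes without a peak, the 3 highest and 3 lowest, the extremes of each class, the pairs and divergent partners; other members were named after their values were seen. Scripts used Python 3.11.15, pandas 2.3.3, scipy 1.17.1 and pyfaidx 0.9.0.4 and were tested on simulated peaks. Alternatives covered the window, TSS set, q and fold limits, measure of strength and leaving out each library.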

Additional observations from a re-analysis of the deposited data

How the results depend on the processing

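Of 99 alternatives to the values above 89 stayed within limits (1.5 times for a count, 1 SD or the Wilson interval otherwise), 8 moved and 2 turned a sign. Within those limits, the other spliceosome list went from 69 bound genes to 61 with the outermost 5′ end, and genes with separate peaks from 36 to 28. The count of 81 bound genes held at windows of 500 bp and 2 kb, at q below 0.001 and without any 1 library, was 79 at fold enrichment above 10, and fell to 45 above 20. The share of summits downstream of the TSS was 92.9% from the outermost 5′ end, 88.6% from the canonical TSS and 76.1% with divergent pairs kept. Stricter limits on GC and CpG left 84.9% of genes CpG-island-like, and 29.1% had a divergent partner where only protein-coding ones counted. For such partners the share over all protein-coding genes was 12.5%. No such share is given for the summit settings or the stricter GC and CpG limits, so those values have no baseline beside them. The difference between core and regulatory genes in median percentile, -0.14, became 1.37 with the outermost 5′ end and -2.90 with recovered fragments, and ranged from -0.86 to 0.87 when each library was left out, being 0.87 without B2. The first gene was higher in all libraries at 2 pairs by fold enrichment and 1 by recovered fragments. The causes of these shifts were not tested. No paired analysis was possible because a pairing of samples needs a second analysed group, and the inputs, which were not analysed here, are the only other group; the gene pairs were compared within libraries. Recovered summit fragments, not read totals, set the depth known here.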
